A study of Homo sapiens with 12 samples.

Results

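The 5 genes described here are AREG (amphiregulin) and EREG (epiregulin), both ligands of the epidermal growth factor receptor (EGFR), and DUSP5, EMP1 and GPRC5A, which are known to respond to the receptor's downstream kinase ERK in other cells. They were picked by symbol from the 10940 genes of a count table, and all 5 passed the filter on low counts that left 10459 genes for testing. The choice rested on measured values of the same libraries, since these genes had stood out by their fold changes among EMEM, Plasmax and Plasmax-TE. Their differences among those 3 media are therefore given as a description, without a p-value. EREG and EMP1 did not pass the count filter in fits without Plasmax libraries, and GPRC5A did not in all of these. HepG2, an established human liver cancer line labelled as wild type, was grown in 4 media, with 3 libraries per medium and 12 in all. Plasmax-TE+Fe was Plasmax lacking its trace elements but with iron added, Plasmax-TE lacked the trace elements, Plasmax was the complete medium modelled on human plasma, and EMEM (Eagle's minimum essential medium) was also the maintenance medium. All 4 media held 10% heat-inactivated fetal bovine serum. The switch was made 24 h after seeding, with fresh medium after 48 h and harvest after 96 h in the new medium. The series asks how iron and the other trace elements of the medium change HepG2 cells, and the 5 genes are followed across the 4 media.

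Ligands of the EGFR family are made as membrane-anchored precursors, released by the protease ADAM17, and bound by EGFR, which signals through adaptors, RAS, RAF, MEK and ERK. Active ERK raises the transcripts of transcription factors such as JUN and of its own inhibitors, among them dual-specificity phosphatases and Sprouty proteins, and AREG and EREG are themselves among the genes that this signalling can raise. In liver, amphiregulin is known as a growth factor that is scarce in healthy tissue and appears after injury. The counts measure messenger RNA, so neither ligand release nor ERK activity was measured.

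Libraries held between 1562125 and 2384090 counts, and 1 count was worth 0.426 to 0.642 CPM (a count scaled to a common library total), here adjusted between libraries with TMM factors. All 8 hepatocyte and HepG2 markers examined were measured, with ALB (albumin) between 3885 and 20339.5 CPM in every library. Of 11 markers of fibroblasts, blood and endothelium, COL1A1 and CD14 had counts, both below the count filter, and the others were not analysed here. A pair of libraries stood apart on the second principal component of all genes: Plasmax-TE+Fe replicate 2 was at -32.0 and Plasmax-TE replicate 1 at -35.5, against -8.11 to 19.6 in the other 10. Both belong to the library numbers 85 to 88, the lowest of 3 runs of 4 consecutive numbers in the labels (85 to 88, 89 to 92 and 93 to 96), each of which holds every medium once. Fold changes of the 5 genes that include them and counts over the pathway lists are given with and without them. Where a call of a named list gene is given, its loss without them is stated. In the Plasmax-TE+Fe medium, replicate 1 belongs to the last run, replicate 2 to the lowest and replicate 3 to the middle one. Whether a medium's 3 libraries stem from separate cultures is not stated in the labels, and the p-values cover only the spread among these libraries, which may be technical.

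Both ligands had their highest mean level in Plasmax, their next highest in Plasmax-TE+Fe and lower ones in Plasmax-TE and EMEM. AREG (ENSG00000109321) had 283, 74.5 and 370.0 CPM in replicates 1, 2 and 3 of Plasmax-TE+Fe, 24.4, 80.0 and 72.3 CPM in Plasmax-TE, 783, 746 and 516 CPM in Plasmax, and 27.0, 47.3 and 45.3 CPM in EMEM. Every Plasmax library lay above all libraries of the other media, while replicate 2 of Plasmax-TE+Fe lay within the range of Plasmax-TE. The means were 242 ± 152 CPM in Plasmax-TE+Fe, 58.9 ± 30.2 CPM in Plasmax-TE, 682 ± 145 CPM in Plasmax and 39.9 ± 11.2 CPM in EMEM (SD, n = 3 each). EREG (ENSG00000124882) had 4.73, 2.57 and 5.98 CPM in Plasmax-TE+Fe, 2.17, 1.35 and 2.72 CPM in Plasmax-TE, 27.0, 19.0 and 4.66 CPM in Plasmax, and 0.642, 0.852 and 0.472 CPM in EMEM. Its EMEM values stand for 1, 2 and 1 counts, and replicate 3 of Plasmax lay inside the range of Plasmax-TE+Fe. In these bulk samples, fewer expressing cells and less RNA per cell cannot be told apart. The genome build of the counts (hg19) annotated AREGB, a near-identical second copy of AREG, and the count table holds 0 entries under that symbol. How reads that match both copies were treated is not known here, so the level of AREG is uncertain.

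AREG and EREG lie side by side on chromosome 4 with 0 annotated genes between them. The 200 bases before each start site are shown because both genes had their highest mean levels in the same media. They come from RefSeq on build GRCh38.p14, which is not the build of the counts, are written 5′ to 3′ on the plus strand, and lie at chr4:74444936-74445135 for AREG and chr4:74364945-74365144 for EREG. Capitals mark TATAAA (the TATA box) and TGACGTCA (the cyclic AMP response element, which reads the same on both strands).
AREG: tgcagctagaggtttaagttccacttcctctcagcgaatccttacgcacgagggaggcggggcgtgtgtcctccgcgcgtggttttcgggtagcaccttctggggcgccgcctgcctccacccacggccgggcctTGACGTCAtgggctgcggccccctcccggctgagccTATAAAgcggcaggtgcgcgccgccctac
EREG: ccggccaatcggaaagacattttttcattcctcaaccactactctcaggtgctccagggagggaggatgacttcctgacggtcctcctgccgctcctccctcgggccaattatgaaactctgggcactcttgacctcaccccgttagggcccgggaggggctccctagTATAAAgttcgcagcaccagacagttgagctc
TATAAA began 29 bases before the start of AREG and 32 bases before that of EREG, and TGACGTCA began 65 bases before the start of AREG. On both strands, TATAAA was found in 8.59% and TGACGTCA in 1.57% of 35116 windows of the same length. Neither window held TGACTCA (the AP-1 site of FOS and JUN dimers) or CCGGAA (a narrow form of ETS factor sites), found in 3.54% and 12.9% of windows. The shorter ETS core GGAA was not among the motifs searched. Both windows hold acttcct, which contains GGAA on the other strand, so no lack of ETS sites is read from the search. The share of all windows with GGAA was not counted. The matches in a window do not overlap each other, and a match describes letters only, not a factor's binding.

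DUSP5 (ENSG00000138166), on chromosome 10, encodes a nuclear phosphatase that acts on ERK and is itself raised by ERK signalling. It had 17.2, 6.68 and 26.9 CPM in Plasmax-TE+Fe, 4.87, 10.3 and 4.35 CPM in Plasmax-TE, 58.9, 68.1 and 38.2 CPM in Plasmax, and 7.70, 12.8 and 5.67 CPM in EMEM. All Plasmax libraries lay above the rest, and the Plasmax-TE and EMEM libraries overlapped. The means were 16.9 ± 10.1 CPM in Plasmax-TE+Fe, 6.52 ± 3.32 CPM in Plasmax-TE, 55.1 ± 15.3 CPM in Plasmax and 8.72 ± 3.66 CPM in EMEM (SD, n = 3 each).

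EMP1 (ENSG00000134531) encodes a tetraspan membrane protein of the PMP22 family. It had 8.60, 3.08 and 3.98 CPM in Plasmax-TE+Fe, 2.17, 3.60 and 3.26 CPM in Plasmax-TE, 35.1, 46.1 and 24.2 CPM in Plasmax, and 0, 0.852 and 1.42 CPM in EMEM. Its EMEM values stand for 0, 2 and 3 counts, every Plasmax library lay above all others, and no EMEM library reached the lowest Plasmax-TE one. The RefSeq window before its start, at chr12:13196526-13196725 on the plus strand of GRCh38.p14, is shown for comparison with those of the ligands, with capitals at TGAGTCA, which is TGACTCA on the other strand.
EMP1: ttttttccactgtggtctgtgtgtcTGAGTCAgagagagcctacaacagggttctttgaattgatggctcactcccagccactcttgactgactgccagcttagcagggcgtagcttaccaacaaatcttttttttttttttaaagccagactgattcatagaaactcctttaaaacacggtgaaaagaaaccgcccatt
The match began 175 bases before the start, and the window held none of the other 3 motifs searched (TATAAA, TGACGTCA and CCGGAA).

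GPRC5A (ENSG00000013588), an orphan receptor induced by retinoic acid, lies on chromosome 12 as EMP1 does, with 10 annotated genes between them. It had 6.45, 2.06 and 10.95 CPM in Plasmax-TE+Fe, 1.08, 2.698 and 3.81 CPM in Plasmax-TE, 23.2, 28.0 and 19.6 CPM in Plasmax, and 2.57, 5.11 and 0.945 CPM in EMEM. The Plasmax libraries again lay above all others, while those of the other 3 media overlapped. The means were 6.49 ± 4.45 CPM in Plasmax-TE+Fe, 2.53 ± 1.37 CPM in Plasmax-TE, 23.6 ± 4.26 CPM in Plasmax and 2.87 ± 2.10 CPM in EMEM (SD, n = 3 each).

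**Figure D1:**
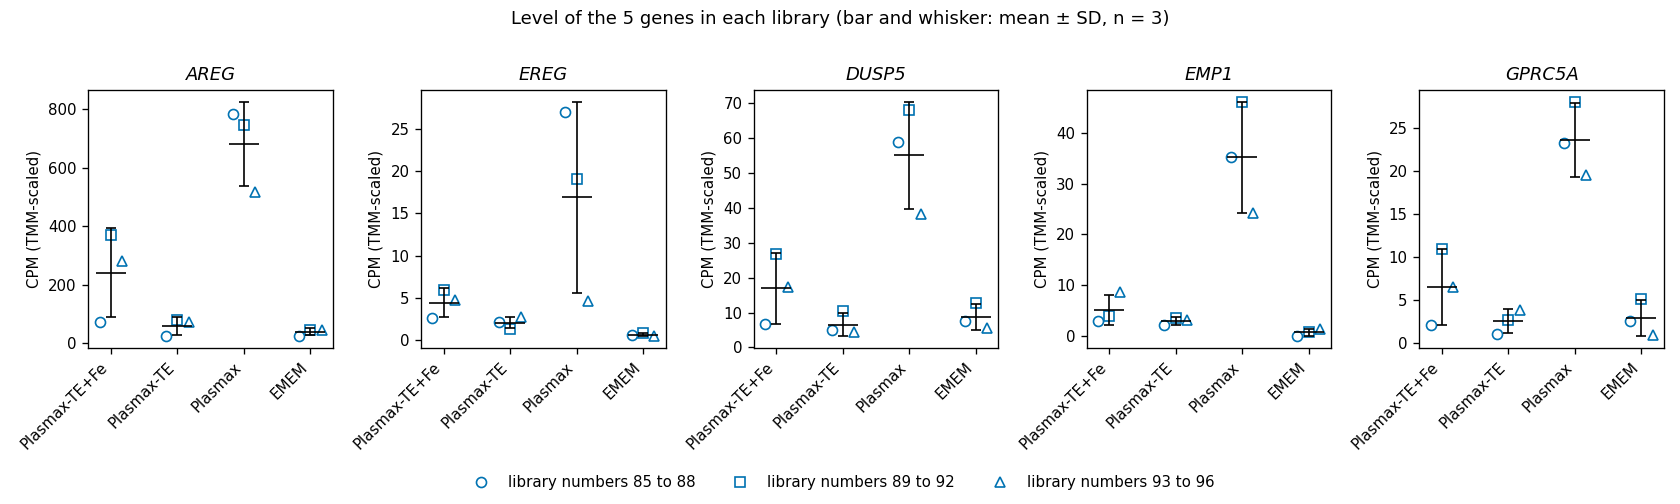
CPM of each gene (vertical axis, linear, a scale of its own in each panel) in the 3 libraries of each medium, with a bar and whisker for the mean ± SD (n = 3) and symbols for the run of library numbers. The 3 Plasmax libraries lie above all others in every panel except that of EREG, where the Plasmax library of the last run (4.66 CPM) lies within the range of Plasmax-TE+Fe.

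The order of mean levels was Plasmax, then Plasmax-TE+Fe, in all 5 genes, and the neighbouring ranges overlapped between these 2 media only for EREG. Below them the order differed between genes: Plasmax-TE lay above EMEM for AREG, EREG and EMP1, and EMEM above Plasmax-TE for DUSP5 and GPRC5A. The Plasmax-TE and EMEM libraries overlapped for AREG, DUSP5 and GPRC5A. The libraries of Plasmax-TE+Fe overlapped those of the next medium below in all 5 genes, which was Plasmax-TE for AREG, EREG and EMP1 and EMEM for DUSP5 and GPRC5A. The medium accounted for 93.2% of the variance of log2 CPM over the 12 libraries for EMP1, 85.6% for AREG, 81.8% for DUSP5, 81.2% for EREG and 79.1% for GPRC5A. Differences among EMEM, Plasmax and Plasmax-TE entered the choice of the genes, so high shares follow from it and nothing is read from their size. Within a medium the 5 genes often lay on the same side of its mean. All 5 were below the medium's mean in replicate 2 of Plasmax-TE+Fe (by 0.92 on the log2 scale on average) and in replicate 3 of Plasmax (by 0.59), and 4 of 5 in replicate 1 of Plasmax-TE (by 0.45). The library of Plasmax-TE+Fe and that of Plasmax-TE just named are those that stood apart over all genes, and the part of this in the levels of the 5 genes was not tested.

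In Plasmax against EMEM, the 5 genes had higher levels in every Plasmax library than in any EMEM library. The log2 fold change was 5.30 ± 0.50 for EMP1, 4.51 ± 0.68 for EREG, 4.07 ± 0.45 for AREG, 2.96 ± 0.47 for GPRC5A and 2.62 ± 0.38 for DUSP5 (± SE of edgeR's quasi-likelihood fit). Of all genes tested, 19.2% had higher libraries without overlap in this comparison, and 9.90% were called higher at a Benjamini-Hochberg adjusted p under 0.05, which is the meaning of "called" throughout. Nothing is read from the count of 5, since this comparison was used in the choice. For the genes with few counts in EMEM the size is loosely bounded: the ratio of summed counts scaled for depth was 42.0 for EMP1 (200 counts in Plasmax and 5 in EMEM), with an exact Clopper-Pearson 95% interval from 17.7 to 131. For EREG it was 23.9 (91 counts in Plasmax and 4 in EMEM), with an interval from 9.01 to 89.5. These intervals cover counting error only. The value of GPRC5A reached 3.79 without EMEM replicate 2, the EMEM library with most of its counts.

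In Plasmax-TE against Plasmax, the levels of the 5 genes were lower in every library without trace elements. The log2 fold change was -3.52 ± 0.43 for AREG, -3.50 ± 0.40 for EMP1, -3.18 ± 0.49 for GPRC5A, -3.02 ± 0.40 for DUSP5 and -2.97 ± 0.56 for EREG (± SE). These sizes lay close to each other, whereas those of Plasmax against EMEM spread from 2.62 to 5.30. Among all genes, 15.1% had lower libraries without overlap and 5.63% were called lower, shares from which nothing is read because this comparison also entered the choice. Without the pair of libraries that stood apart the values were -3.16 for AREG, -3.32 for EMP1, -2.85 for GPRC5A, -2.85 for DUSP5 and -3.01 for EREG.

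In Plasmax-TE against EMEM, the media with the lowest levels, EMP1 and EREG had higher libraries without overlap in Plasmax-TE, against 11.9% of all genes, and the other 3 genes overlapped. The log2 fold change was 1.80 ± 0.74 for EMP1, 1.53 ± 0.97 for EREG, 0.55 ± 0.45 for AREG, -0.22 ± 0.66 for GPRC5A and -0.40 ± 0.49 for DUSP5 (± SE). Summed counts of EREG were 12 in Plasmax-TE and 4 in EMEM, a ratio of 3.06 with an exact 95% interval from 0.927 to 13.01. For EMP1 they were 18 in Plasmax-TE and 5 in EMEM, a ratio of 3.67 with an interval from 1.31 to 12.6. Both intervals cover counting error only, not the spread between libraries. This comparison also entered the choice, so neither interval is read as a test. The direction rested on single libraries for GPRC5A, which had 0.60 without EMEM replicate 2 and 0.11 without Plasmax-TE replicate 1, and for DUSP5, which had 0.03 without EMEM replicate 2. Without the pair that stood apart the values were 1.98 for EMP1, 1.49 for EREG, 0.91 for AREG, 0.11 for GPRC5A and -0.23 for DUSP5.

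**Figure D2:**
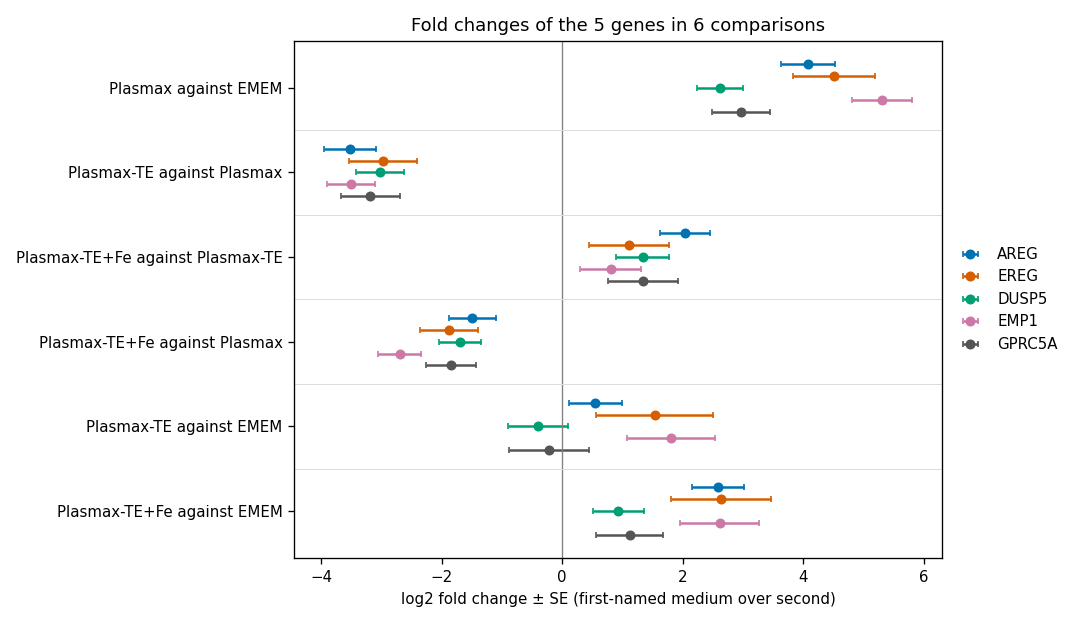
Log2 fold change ± SE (horizontal axis, medium named on the left over the other) of the 5 genes in 6 comparisons of media. The values lie between 2.62 and 5.30 in Plasmax against EMEM, between -3.52 and -2.97 in Plasmax-TE against Plasmax, and between 0.81 and 2.03 in Plasmax-TE+Fe against Plasmax-TE.

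Iron supplementation of the depleted medium is the comparison of Plasmax-TE+Fe against Plasmax-TE. AREG rose by a log2 fold change of 2.03 ± 0.42 in the quasi-likelihood test of edgeR (Benjamini-Hochberg adjusted p = 0.037). It was the only called gene of the 5, where 0.0861% of all genes were called higher and 0.172% lower. The other 4 had higher mean levels without passing the test: GPRC5A at 1.34 ± 0.57 (adjusted p = 0.48), DUSP5 at 1.33 ± 0.44 (adjusted p = 0.29), EREG at 1.10 ± 0.66 (adjusted p = 0.65) and EMP1 at 0.81 ± 0.50 (adjusted p = 0.68). None of the 5 had libraries without overlap. The Plasmax-TE libraries were among those that entered the choice of the genes, so these p-values are not free of it. EREG, EMP1 and GPRC5A were below the count filter with only the 6 libraries compared. Their test here thus rests on the Plasmax libraries being in the fit. With 3 libraries against 3, the smallest p of an exact permutation test is 0.1.

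In all 15 pairs of a gene and a run of library numbers, the Plasmax-TE+Fe library was above the Plasmax-TE library, by 0.12 to 2.19 on the log2 scale (median 1.17). The ratio of AREG was 3.06 in the lowest run (74.5 CPM in Plasmax-TE+Fe and 24.4 CPM in Plasmax-TE), 4.62 in the middle run (370.0 CPM in Plasmax-TE+Fe and 80.0 CPM in Plasmax-TE) and 3.91 in the last run (283 CPM in Plasmax-TE+Fe and 72.3 CPM in Plasmax-TE). The ratio of DUSP5 was 1.37, 2.60 and 3.95 in the same order of runs, and that of EMP1 was 1.42, 1.11 and 2.64. The 5 genes of a run share their libraries, so the 15 pairs are not independent.

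The call of AREG depended on the libraries in the fit. It was lost in edgeR's test without Plasmax-TE+Fe replicate 1 (1.91, adjusted p = 0.148), Plasmax-TE+Fe replicate 3 (1.61, adjusted p = 0.31), Plasmax-TE replicate 1 (1.67, adjusted p = 0.104), Plasmax-TE replicate 2 (2.33, adjusted p = 0.0938) and Plasmax-TE replicate 3 (2.196, adjusted p = 0.0958). It held without Plasmax-TE+Fe replicate 2 (2.46, adjusted p = 1.9e-04) and without the pair that stood apart (2.09, adjusted p = 3.7e-05). Over all 15 alternatives its adjusted p ran from 3.7e-05 to 0.31, and it was called in 6. Without that pair DUSP5 had 1.52 (adjusted p = 0.0861), GPRC5A 1.40, EREG 1.40 and EMP1 0.89, and DUSP5 was called when only Plasmax-TE+Fe replicate 2 was left out (1.70, adjusted p = 0.0204). EMP1, not called in any fit, had 0.22 without Plasmax-TE+Fe replicate 1. With the library run as a block in edgeR's test, AREG (1.98, adjusted p = 0.00363) and DUSP5 (1.37, adjusted p = 0.0496) were both called, and called genes numbered 152 in all, against 27 without the block.

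**Figure D3:**
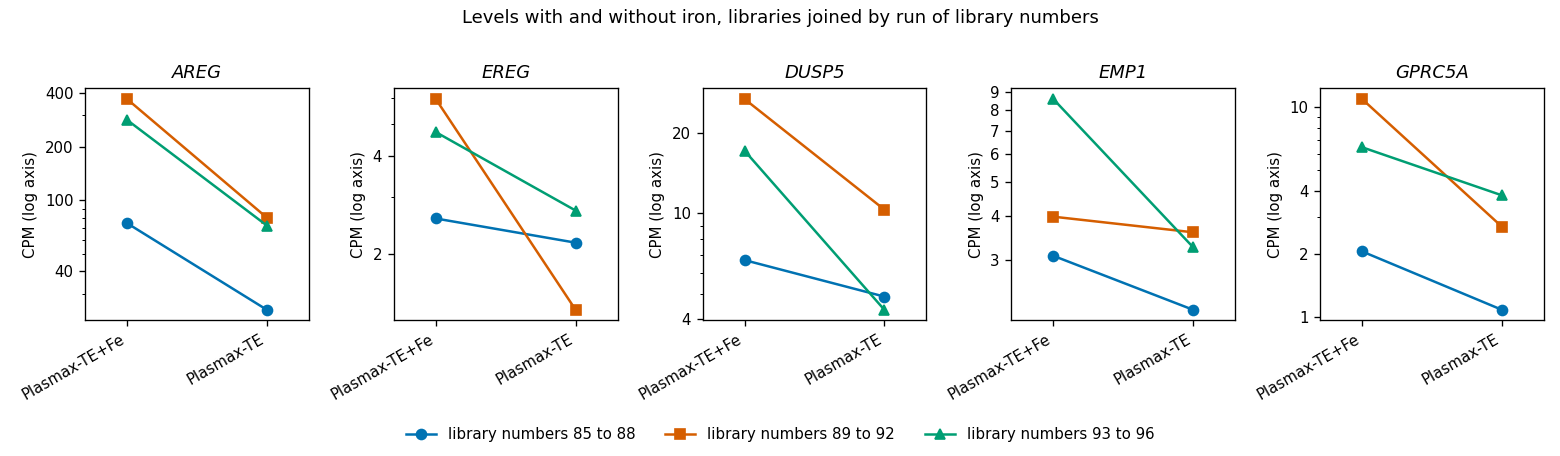
CPM (vertical axis, logarithmic, a scale of its own in each panel) of the 5 genes in Plasmax-TE+Fe and Plasmax-TE, with a line joining the libraries of the same run of library numbers. The Plasmax-TE+Fe end is higher on all 15 lines, and for AREG the lowest run lies below the other 2 in both media.

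With iron alone put back, the mean levels of the 5 genes lay below those in complete Plasmax. In Plasmax-TE+Fe against Plasmax, the same test called EMP1 (-2.696 ± 0.36, adjusted p = 3.4e-04), DUSP5 (-1.69 ± 0.35, adjusted p = 0.017) and GPRC5A (-1.85 ± 0.41, adjusted p = 0.03), while 0.698% of all genes were called lower and 0.507% higher. EREG (-1.87 ± 0.48, adjusted p = 0.067) and AREG (-1.49 ± 0.39, adjusted p = 0.068) did not pass. Libraries of 4 of the 5 did not overlap, EREG being the exception, where 9.42% of all genes had lower libraries without overlap. Within runs, 14 of 15 pairs were lower in Plasmax-TE+Fe, and the pair of EREG in the last run had a ratio of 1.02. The Plasmax libraries entered the choice of the genes, so these p-values are not free of it either. Without the pair that stood apart the values were -2.44 for EMP1 (adjusted p = 7.0e-04), -1.45 for GPRC5A (adjusted p = 0.0353), -1.32 for DUSP5 (adjusted p = 0.0221), -1.61 for EREG (adjusted p = 0.14) and -1.06 for AREG (adjusted p = 0.0031). How large a share of all genes that fit called lower is not given here, so nothing is read from the number of calls. Leaving out single libraries, EMP1 was called in every fit. The call of DUSP5 was lost without Plasmax-TE+Fe replicate 1 (adjusted p = 0.0642), Plasmax replicate 1 (adjusted p = 0.0528) or Plasmax replicate 2 (adjusted p = 0.135), and that of GPRC5A in all fits but that without Plasmax-TE+Fe replicate 3 (adjusted p = 0.0503 to 0.193 in those). Conversely, AREG was called without Plasmax-TE+Fe replicate 3 (-1.92, adjusted p = 0.0357) and EREG without Plasmax replicate 3 (-2.34, adjusted p = 0.0032).

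Against EMEM the iron-supplemented medium had higher mean levels of all 5 genes. In the quasi-likelihood test of edgeR, AREG (2.58 ± 0.43, adjusted p = 5.5e-04), EMP1 (2.61 ± 0.65, adjusted p = 0.014) and EREG (2.64 ± 0.83, adjusted p = 0.049) rose, while 3.67% of all genes were called higher. GPRC5A (1.12 ± 0.55, adjusted p = 0.22) and DUSP5 (0.93 ± 0.42, adjusted p = 0.18) did not pass. The EMEM libraries, where the 5 genes were low, entered their choice, so these p-values are not free of it. EREG and EMP1 were below the count filter with only the 6 libraries compared, so their test rests on the Plasmax libraries being in the fit. The libraries of AREG, EREG and EMP1 did not overlap, where 13.6% of all genes had higher libraries without overlap, and 13 of 15 pairs within runs were higher. Both exceptions, DUSP5 (6.68 CPM in Plasmax-TE+Fe and 7.70 CPM in EMEM) and GPRC5A (2.06 CPM in Plasmax-TE+Fe and 2.57 CPM in EMEM), lay in the lowest run. Without the pair of libraries that stood apart the values were 3.002 for AREG (adjusted p = 3.5e-09), 2.89 for EREG (adjusted p = 0.0285), 2.87 for EMP1 (adjusted p = 0.0055), 1.51 for GPRC5A (adjusted p = 0.0372) and 1.29 for DUSP5 (adjusted p = 0.019). Of 71 tested genes of the pathway lists, that fit called 9 higher and 5 lower, against 4 and 7 on all 12 libraries. The share of all genes called higher in that fit is not given here, so nothing is read from the number of calls. AREG was called in every fit that left out a single library. EREG lost its call in all of them but that without Plasmax-TE+Fe replicate 2 (adjusted p = 0.104 to 0.153 in those), and EMP1 lost it without Plasmax-TE+Fe replicate 1 (adjusted p = 0.102), EMEM replicate 1 (adjusted p = 0.0553) or EMEM replicate 2 (adjusted p = 0.0566). DUSP5 was called without Plasmax-TE+Fe replicate 2 (1.29, adjusted p = 0.024). GPRC5A had 0.58 without Plasmax-TE+Fe replicate 3, 0.68 without EMEM replicate 3 and 1.94 without EMEM replicate 2, and was called in none of these. With the library run as a block the same 3 genes were called, and called genes numbered 1569 in all, against 1009 without the block.

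The rest of the pathway was followed with lists of 97 other genes, of which 71 were tested, and counts are given beside those of all genes with no test of a list. In Plasmax against EMEM, 13 of the 71 rose and 7 fell (18.3% and 9.86%), against 9.90% and 11.5% of all genes. Without the pair that stood apart, 15 rose and 9 fell. Counts from fits other than the main one stand here without the all-gene shares of those fits, so nothing is read from them. In Plasmax-TE against Plasmax, 5 rose and 14 fell (7.04% and 19.7%), against 5.61% and 5.63% of all genes. Without the pair, 5 rose and 11 fell, and the lost calls were those of HBEGF, TGFA and DUSP6. In Plasmax-TE+Fe against Plasmax-TE, edgeR's test called 0 of the 71 in either direction, with 14 higher and 3 lower at an unadjusted p under 0.05. DESeq2 called 3 of them higher there, limma-voom called 0, edgeR without the pair that stood apart called 3 higher, edgeR with the library run as a block called 4 higher, and none of these called any lower. The median log2 fold change of the 71 genes was 0.08, -0.27 and 0.25 in these 3 comparisons, against -0.01, 0.02 and 0.00 over all genes. In Plasmax-TE+Fe against Plasmax, 1 rose and 2 fell (1.41% and 2.82%), against 0.507% and 0.698% of all genes, and without the pair 3 rose and 1 fell. JUN was among those called lower there, and edgeR's test did not call it without the pair (-0.63, adjusted p = 0.0639).

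Of 9 other ligands of the receptor family, TGFA and HBEGF could be tested. HBEGF, which binds EGFR as AREG does, had 5.85 ± 1.92 CPM in Plasmax-TE+Fe, 2.17 ± 0.536 CPM in Plasmax-TE, 6.71 ± 0.963 CPM in Plasmax and 7.56 ± 2.30 CPM in EMEM (SD, n = 3 each). TGFA, transforming growth factor alpha, had 26.6 ± 7.55 CPM in Plasmax-TE+Fe, 20.4 ± 5.19 CPM in Plasmax-TE, 37.1 ± 13.1 CPM in Plasmax and 28.9 ± 4.73 CPM in EMEM. The Plasmax and EMEM libraries of both overlapped, and neither was called in Plasmax against EMEM (log2 fold change -0.17 ± 0.36 for HBEGF and 0.37 ± 0.26 for TGFA). In Plasmax-TE against Plasmax both fell in edgeR's test, with -1.598 ± 0.45 for HBEGF (adjusted p = 0.027) and -0.87 ± 0.27 for TGFA (adjusted p = 0.045). Neither fall was called without the pair of libraries that stood apart. With the library run as a block in edgeR's test, both were called (-1.62, adjusted p = 0.0151 for HBEGF and -0.85, adjusted p = 0.00736 for TGFA). In Plasmax-TE against EMEM, HBEGF was called lower on all 12 libraries, and not without the pair that stood apart (-1.61, adjusted p = 0.0507 in edgeR's test). With iron, HBEGF had 1.37 ± 0.46 (adjusted p = 0.29) in Plasmax-TE+Fe against Plasmax-TE. TGFA had 0.38 there with the library run as a block (adjusted p = 0.483).

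Of the receptors, ERBB3 alone was called in any of the 6 comparisons by edgeR's test on all 12 libraries, and also without the pair that stood apart. EGFR had 22.4 ± 9.53 CPM in Plasmax-TE+Fe, 17.99 ± 2.04 CPM in Plasmax-TE, 31.3 ± 4.88 CPM in Plasmax and 30.8 ± 7.14 CPM in EMEM. In Plasmax-TE against Plasmax, edgeR's test gave EGFR -0.79 without that pair (adjusted p = 0.0565). With the library run as a block it was called lower there (-0.79, adjusted p = 0.0274). ERBB3, a partner receptor with little kinase activity of its own, had 312.5 ± 32.3 CPM in Plasmax-TE+Fe, 347 ± 46.8 CPM in Plasmax-TE, 231 ± 21.4 CPM in Plasmax and 384 ± 22.9 CPM in EMEM. It fell by 0.73 ± 0.14 in Plasmax against EMEM (adjusted p = 0.0011) and rose by 0.59 ± 0.14 in Plasmax-TE against Plasmax (adjusted p = 0.013). ERBB2 had means of 79.8 CPM in Plasmax-TE+Fe, 91.7 CPM in Plasmax-TE, 78.6 CPM in Plasmax and 98.8 CPM in EMEM, and ERBB4 was not analysed here. Of the 5 genes of ligand shedding, ADAM17 among them, edgeR's test on all 12 libraries called 0 in the 6 comparisons. RHBDF2, which helps ADAM17 mature and is named after its values were seen, was called without the pair that stood apart in Plasmax against EMEM (0.47, adjusted p = 0.0343).

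Of 16 tested genes of the adaptors and the RAS-RAF-MEK-ERK cascade, 2 rose and 1 fell in Plasmax against EMEM. SOS1, which loads RAS with GTP, rose by 1.41 ± 0.18 (adjusted p = 1.7e-05), and MAPK3, which encodes ERK1, fell by 1.13 ± 0.19 (adjusted p = 2.4e-04). In Plasmax-TE against Plasmax, SOS1 fell by 1.10 ± 0.18 (adjusted p = 7.1e-04) and MAPK3 rose by 0.79 ± 0.19 (adjusted p = 0.012). SOS1 was also lower in Plasmax-TE+Fe than in Plasmax (-0.94 ± 0.18, adjusted p = 0.009). Of the 11 tested feedback inhibitors, DUSP4, a nuclear ERK phosphatase like DUSP5, rose in Plasmax against EMEM (1.39 ± 0.46, adjusted p = 0.038), and the others were not called in edgeR's test on all 12 libraries. Without the pair that stood apart, DUSP6, a cytoplasmic ERK phosphatase, was called lower there (-0.44, adjusted p = 0.0136). In Plasmax-TE against Plasmax, DUSP6 fell (-0.64 ± 0.19, adjusted p = 0.032) and its relative DUSP7 rose (0.83 ± 0.26, adjusted p = 0.045). The call of DUSP6 was lost without the pair (-0.46, adjusted p = 0.0503). DUSP6 had 421 ± 80.6 CPM in Plasmax-TE+Fe, 270 ± 68.8 CPM in Plasmax-TE, 422 ± 73.6 CPM in Plasmax and 572 ± 42.4 CPM in EMEM, so that its highest mean lay in EMEM. Of 4 other MAP kinase phosphatases, DUSP9 fell by 1.10 ± 0.15 in Plasmax against EMEM (adjusted p = 3.0e-05) and rose by 0.96 ± 0.15 in Plasmax-TE against Plasmax (adjusted p = 4.3e-04), and DUSP16 fell by 0.50 ± 0.17 in Plasmax against EMEM (adjusted p = 0.047).

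Of 27 tested other ERK-responsive genes, 10 rose and 2 fell in Plasmax against EMEM (median log2 fold change 0.40), and 1 rose and 10 fell in Plasmax-TE against Plasmax (median -0.43). The 4 risers with the lowest p in Plasmax against EMEM were KLF10, a transcription factor (1.72 ± 0.24, adjusted p = 4.8e-05), PLAUR, the urokinase receptor (2.57 ± 0.40, adjusted p = 1.0e-04), IER5 (0.95 ± 0.19, adjusted p = 0.0011) and ELK3, an ETS factor (1.61 ± 0.32, adjusted p = 0.0012). In Plasmax-TE against Plasmax the lowest p belonged to JUN (-1.50 ± 0.19, adjusted p = 6.1e-05), KLF6 (-1.22 ± 0.21, adjusted p = 8.7e-04), TRIB1 (-1.28 ± 0.22, adjusted p = 0.001) and IER5 (-0.97 ± 0.19, adjusted p = 0.0022). TRIB1 and IER5 were also called higher in Plasmax against EMEM. JUN and KLF6 were not called in that comparison (0.13 and 0.03 without the pair that stood apart). THBS1, named after its values were seen, was among the 2 that fell in Plasmax against EMEM (-0.67 ± 0.23) and was also the 1 that rose in Plasmax-TE against Plasmax (0.93 ± 0.23, adjusted p = 0.013). SPRY2, SPRY4, ETV4 and ETV5, also readouts of ERK signalling, were likewise named after their values were seen. They were not called in Plasmax against EMEM (-0.10 ± 0.37, 0.27 ± 0.38, -0.34 ± 0.19 and 0.40 ± 0.19) in the test on all 12 libraries. ETV5 was called higher without the pair that stood apart (0.40, adjusted p = 0.0219). The rest of the 10 risers there were FOSL1, CCND1, PHLDA1, TRIB1, HMGA2 and CCN1. They were called with and without that pair. Among relatives of EMP1 and GPRC5A, GPRC5C fell in Plasmax against EMEM (-1.01 ± 0.16, adjusted p = 1.1e-04), EMP2 was not called, and EMP3 was below the count filter.

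**Figure D4:**
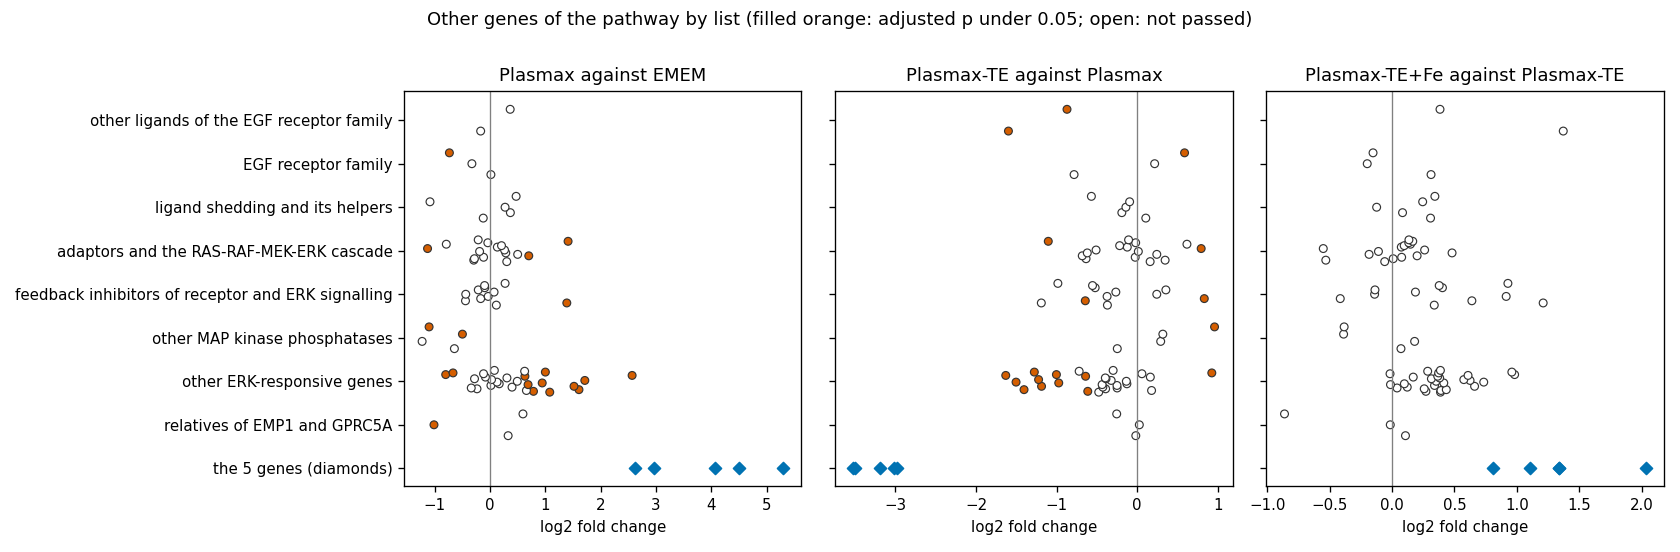
Log2 fold change (horizontal axis) of each tested gene of the 8 lists (rows, orange where the adjusted p was under 0.05) and of the 5 genes (diamonds, in the lowest row, not tested here), in 3 comparisons. The other ERK-responsive genes lie mostly right of 0 in Plasmax against EMEM (10 rose, 2 fell) and left of 0 in Plasmax-TE against Plasmax (1 rose, 10 fell), and no list gene passed edgeR's test on all 12 libraries in Plasmax-TE+Fe against Plasmax-TE.

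The profiles of the 5 genes over the 12 libraries were compared by the root mean square difference of log2 CPM after centring each gene on its own mean. DUSP5 and GPRC5A were the closest pair (0.386) and DUSP5 and EMP1 the farthest (0.912). AREG and EREG, neighbours on the chromosome, differed by 0.861. Over the 9934 genes whose mean reached 5 CPM, the median difference from the mean profile of the 5 was 1.42. The 8 other genes nearest to that profile included IL11 (interleukin 11, 0.338), CDKN2B (a cyclin-dependent kinase inhibitor, 0.407), ESAM (an adhesion molecule, 0.419), PMAIP1 (a pro-apoptotic BCL2 relative, 0.481), TUBB2B (a tubulin, 0.515), KRT19 (a keratin, 0.521) and SERPINE2 (a protease inhibitor, 0.528). IL11 had 28.6 ± 10.7 CPM in Plasmax-TE+Fe, 12.2 ± 3.31 CPM in Plasmax-TE, 69.0 ± 20.3 CPM in Plasmax and 9.32 ± 3.73 CPM in EMEM (SD, n = 3 each), the order of media that AREG also showed. None of the 8 was on the pathway lists. With a prior count of 0.5 in place of 2, 6 of the 8 remained among the nearest 8, and 5 remained without the pair of libraries that stood apart. For single genes the nearest were CDKN2B (0.674) and IL11 (0.688) for AREG, ESAM (0.498) and CDKN2A (0.508) for EREG, GPRC5A (0.386) and KRT19 (0.441) for DUSP5, IL11 (0.681) and AREG (0.714) for EMP1, and DUSP5 (0.386) and KRT19 (0.421) for GPRC5A.

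**Figure D5:**
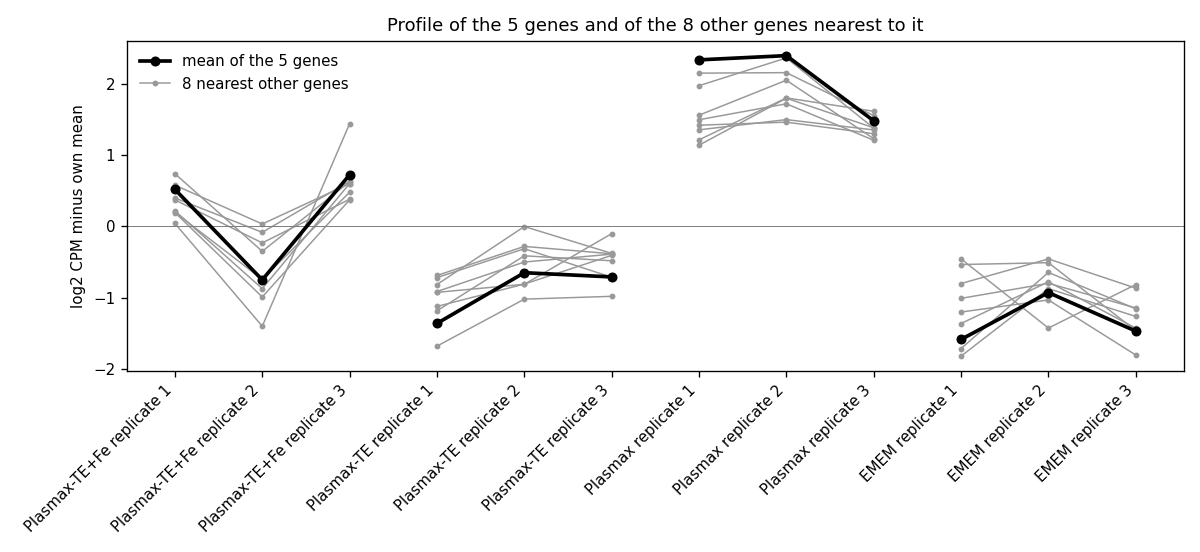
Log2 CPM minus each gene's own mean (vertical axis) in the 12 libraries (horizontal axis), for the mean of the 5 genes (black) and the 8 other genes nearest to it (grey). The black line lies highest in the Plasmax libraries and dips in replicate 2 of Plasmax-TE+Fe, where all 5 genes were below their medium's mean.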

How the data were processed

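Total RNA of HepG2 cells was made into QuantSeq libraries, which read the 3′ end of messenger RNA, per the labels' protocols. STAR 2.7.5b, with cutadapt 1.16 and FastQC 0.72, stands in the submitters' processing notes beside featureCounts 1.6.3, limma 3.40.6 and build hg19 (GRCh37). Not given in the sources used here are annotation, strand setting and treatment of reads with several matches. The deposited values are raw whole-number counts for each gene, not normalized. Of 10994 entries, 54 surplus ones with repeated identifiers were dropped, which left 10940 genes.

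Counts were fitted with edgeR 4.0.16 in R 4.3.3 (TMM factors, filterByExpr with a minimum count of 10 and a minimum total of 15, 10459 genes kept, 1 quasi-likelihood model of the 4 media, 8 residual degrees of freedom, two-sided, Benjamini-Hochberg adjustment over all genes). SE is the absolute log2 fold change over the square root of F. Log2 CPM used a prior count of 2. The fit was tested on simulated data. The 5 genes, the lists and the tests were chosen with earlier results of these data known. Named were the 5 genes, the receptors and other ligands, up to 4 called genes of each list with the lowest p, the 8 genes nearest in profile and 2 for each gene. Some genes that this rule names are not reported here. Libraries of the same run of library numbers deviated together from their medium means in every pair of Plasmax-TE+Fe and Plasmax-TE (r across genes 0.249 to 0.554), of Plasmax-TE+Fe and EMEM (0.123 to 0.174) and of Plasmax-TE and EMEM (0.117 to 0.172), and not above 0.1 in those with Plasmax and a depleted medium. The value of 0.554 belongs to the libraries that stood apart, Plasmax-TE+Fe replicate 2 and Plasmax-TE replicate 1. Deviations cancel out within a medium, so the pairs of the same media are not independent. The part of the libraries that stood apart in the other pairs was not tested. Alternatives tried were DESeq2 1.42.0, limma-voom (limma 3.58.1), RLE factors, library size alone, no filter, a replicate block, a library-number block, single libraries left out, both libraries that stood apart left out, and only the 6 libraries compared.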

Additional observations from a re-analysis of the deposited data

How the results depend on the processing

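Of 440 fold changes of the 5 genes under the alternatives, 436 kept their sign. The 4 that did not were all in Plasmax-TE against EMEM, and 1 of them moved by more than the spread between replicates: GPRC5A had 0.60 without EMEM replicate 2 (-0.66 to 0.60 over single libraries left out). Replicate number and run of library numbers coincide in EMEM, Plasmax and Plasmax-TE, and differ in Plasmax-TE+Fe. Deviations from the medium means correlated above 0.1 in 6 of 18 same-numbered pairs, and in 11 of 18 pairs of the same run. Pairs without a Plasmax-TE+Fe library are the same in both counts. With the replicate block, values that changed their call were 2.02 for AREG in Plasmax-TE+Fe against Plasmax-TE (adjusted p = 0.0775), -1.84 for GPRC5A in Plasmax-TE+Fe against Plasmax (adjusted p = 0.0552) and 2.61 for EREG in Plasmax-TE+Fe against EMEM (adjusted p = 0.0516). It changed no other call of the 5 genes and kept the counts of called genes within 1.5 times.

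With the library-number block, DUSP5 (1.37, adjusted p = 0.0496) was called in Plasmax-TE+Fe against Plasmax-TE, and AREG (-1.73) and EREG (-1.75) in Plasmax-TE+Fe against Plasmax. Called genes then numbered 1859 in Plasmax-TE against Plasmax (1176 without the block), 152 in Plasmax-TE+Fe against Plasmax-TE (27), 372 in Plasmax-TE+Fe against Plasmax (126), 829 in Plasmax-TE against EMEM (503) and 1569 in Plasmax-TE+Fe against EMEM (1009). Of the 71 list genes, 3 rose and 5 fell in Plasmax-TE+Fe against Plasmax with it. With only the 6 libraries compared, Plasmax-TE+Fe against Plasmax had 77 called genes and Plasmax-TE+Fe against Plasmax-TE had 0 in edgeR's test (776 at an unadjusted p under 0.05), and AREG had 2.03 (adjusted p = 0.232). DESeq2 called 71 genes there and limma-voom 20, with AREG at 2.04 (adjusted p = 0.076) and 1.91 (adjusted p = 0.105). Limma-voom called AREG in Plasmax-TE+Fe against Plasmax (-1.75) and not EREG in Plasmax-TE+Fe against EMEM (2.31). Without both libraries that stood apart, 99 genes were called in Plasmax-TE+Fe against Plasmax-TE, AREG was called in Plasmax-TE+Fe against Plasmax (-1.06), and DUSP5 (1.29) and GPRC5A (1.51) in Plasmax-TE+Fe against EMEM.

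With single libraries left out, called genes ran from 477 to 990 in Plasmax-TE against Plasmax, 0 to 229 in Plasmax-TE+Fe against Plasmax-TE, 31 to 97 in Plasmax-TE+Fe against Plasmax, 259 to 409 in Plasmax-TE against EMEM and 606 to 1145 in Plasmax-TE+Fe against EMEM. The count of 0 arose in 4 such fits with edgeR, which had 549 to 981 genes at an unadjusted p under 0.05. Fold changes in Plasmax against EMEM ran from 4.89 to 5.94 for EMP1 and 2.53 to 3.79 for GPRC5A. DUSP5 in Plasmax-TE against Plasmax ran from -3.55 to -2.81, and EMP1 in Plasmax-TE against EMEM from 1.39 to 2.44. In Plasmax-TE+Fe against Plasmax-TE the ranges were 1.61 to 2.46 for AREG, 0.87 to 1.87 for DUSP5, 0.79 to 1.74 for GPRC5A and 0.22 to 1.06 for EMP1. In Plasmax-TE+Fe against Plasmax they were -1.92 to -1.06 for AREG, -2.34 to -1.39 for EREG, -2.17 to -1.32 for DUSP5 and -2.41 to -1.45 for GPRC5A. In Plasmax-TE+Fe against EMEM they were 2.40 to 2.89 for EREG, 0.48 to 1.36 for DUSP5, 0.58 to 1.94 for GPRC5A and 2.02 to 3.24 for EMP1. The cause of these changes was not tested, except that fits without a library or with 6 libraries rest on fewer samples. Depth limits EREG, EMP1 and GPRC5A most, since a few counts per library stood behind their levels in Plasmax-TE and EMEM, where a prior count of 0.5 in place of 2 widened the span of log2 CPM of EMP1 to 7.53, against 5.55.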
